A study of Homo sapiens with 18 samples.

Results

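Ribosome biogenesis and nucleolar genes were followed as a list of 42 genes given by name, after siRNA against the histone methyltransferase genes KMT2C or KMT2D in 3 human pancreatic cancer cell lines. All 42 symbols were matched to Ensembl identifiers, of 63677 identifiers in each count table. Of these, 41 passed the filter on low counts that kept 21028 genes for testing. BOP1, a 60S assembly factor, was listed at 0 under its matched identifier in all 18 libraries, so no value is given for it, and this says nothing of its expression. The members fall into RNA polymerase I transcription (8 genes), abundant nucleolar proteins (3), the box C/D small nucleolar ribonucleoprotein core (3), the small subunit processome with 40S assembly (13) and 60S assembly (15 with BOP1, 14 tested).

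PANC1, COLO357 and SUIT2 are established lines of pancreatic ductal adenocarcinoma. Each line gave 1 library with Control siRNA, 2 with KMT2D siRNA (siRNA1 and siRNA2) and 3 with KMT2C siRNA (siRNA1, siRNA2 and siRNA3), 48 h after transfection. KMT2C and KMT2D encode enzymes that methylate lysine 4 of histone H3, chiefly at enhancers. The libraries of a target in a line differ in the siRNA used, no siRNA was repeated within a line, and nothing states separate cultures beyond that, so p-values here reflect how much these libraries vary and no more. Every siRNA library of a line is read against the same lone control library. Total RNA was depleted of ribosomal RNA before sequencing, so the product of these genes, ribosomal RNA, was not measured, and in bulk RNA fewer expressing cells and less RNA per cell cannot be told apart.

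Gene counts ran from 14205640 to 32115894 per library. The share of read pairs in no annotated feature ran from 7.49% to 30.4%, with the highest values in the siRNA3 library of COLO357 (30.4%) and the siRNA2 (25.0%) and siRNA3 (22.2%) libraries of SUIT2, all of KMT2C siRNA. The targeted mRNA stood at 68.6% ± 21.1 of control (SD, n = 9) for KMT2C and at 59.0% ± 20.8 (SD, n = 6) for KMT2D, with 79.9% and 84.7% left in the PANC1 libraries of KMT2D siRNA. The mRNA of the gene not targeted was higher in several libraries. KMT2D stood at 99.1% to 372% of control in the KMT2C libraries, with 372% in PANC1 KMT2C siRNA2 and 207.5% the next highest. KMT2D rose with KMT2C siRNA2 (log2 fold change 1.02, adjusted p = 0.0401), at 128% in COLO357 and 158% in SUIT2. That rise is not given without the PANC1 library. KMT2C stood at 92.7% to 274% in the KMT2D libraries, with 274% in PANC1 KMT2D siRNA2, and rose with KMT2D siRNA2 (0.72, adjusted p = 0.0291). KMT2C stood at 116% of control in the library labelled PANC1 KMT2C siRNA2, which goes against that label, and the counts for KMT2C siRNA2 are given with and without it. All 8 ductal epithelial markers reached 1 CPM (counts scaled by library size) in some library and all 7 acinar markers stayed under 1 CPM in every library. KRT7, a ductal keratin, read only 1.91 to 3.03 CPM in PANC1. Of 7 fibroblast markers, COL1A1 reached 178.9 CPM in PANC1 and 147.9 in COLO357, and the other 6 stayed under 2 CPM.

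Ribosome production starts in the nucleolus, where RNA polymerase I copies the ribosomal DNA into a long precursor. The small subunit processome folds and cuts that precursor towards the 18S rRNA. Many box C/D small nucleolar RNAs direct methylation of the precursor, and separate factors assemble the 60S subunit. Growing cancer cells are known for high output of this pathway, and many of its genes are known targets of the transcription factor MYC.

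Per kilobase of annotated exon, the mean CPM over the 6 PANC1 libraries was highest for FBL (607), the methyltransferase of the box C/D particle. Next on this per-length scale were NCL, nucleolin (296), NPM1, nucleophosmin, a histone and ribosome chaperone (281), and DDX21, a nucleolar RNA helicase (280.4). In COLO357 the order began with NPM1 (451) and NCL (283), and in SUIT2 with NCL (311) and NPM1 (259). Of the processome and 60S factors, EBNA1BP2 (45.3 to 109.8 as line means), WDR43 (62.1 to 80.6) and GNL3 (64.1 to 70.9) were the most abundant by the mean of the 3 lines, in an order that differed between lines. At the other end, POLR1C, a subunit shared by RNA polymerases I and III, read 2.53 to 4.12 CPM per kilobase as line means, and PPAN, a 60S factor, 0.698 to 1.29. PPAN shares exons with the PPAN-P2RY11 readthrough gene and P2RY11, and 11 of the 42 members share exons with another gene on the same strand, among them TAF1D, NOP56, NOP58 and GNL3, which host small nucleolar RNAs. The counts of those members may hold or lack reads of the other gene.

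With KMT2D siRNA, pooled over both siRNAs and the 3 lines, 1 member passed an adjusted p of 0.05 (called), against 1.2% of all genes tested (0.699% higher). It was DDX10, an RNA helicase of the small subunit processome, which rose 1.55-fold (log2 fold change 0.63, SE 0.152, adjusted p = 0.0411). The median log2 fold change was -0.10 over the 41 members, with 14 above and 27 below 0, and 0.02 over all genes. Small subunit factors had the lowest median by role (-0.34, 11 of 13 below 0), and RNA polymerase I genes stood at 0.01 and 60S factors at 0.00. The members with the next smallest p did not pass. They were HEATR1, a processome protein also needed for ribosomal DNA transcription (log2 fold change -0.51, SE 0.151, adjusted p = 0.109), LAS1L, an endonuclease complex member of 60S maturation (-0.52, adjusted p = 0.112), and RRP9, a U3 particle protein (-0.67, adjusted p = 0.177).

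With KMT2C siRNA, pooled over 3 siRNAs and 3 lines, no member was called by edgeR, against 0.281% of all genes, while 11 members had an unadjusted p under 0.05 and DESeq2 called 1, DDX10. The median over the members was -0.24, with 8 above and 33 below 0, and 0.00 over all genes. Medians by role were -0.29 for the small subunit factors, -0.21 for 60S factors, -0.26 for the box C/D core and -0.16 for RNA polymerase I genes. The 4 smallest p-values belonged to DDX10 (log2 fold change 0.67, SE 0.146, adjusted p = 0.0508), NPM1 (-0.52, adjusted p = 0.255), NOP56, a box C/D core protein (-0.54, adjusted p = 0.367), and RRS1, a factor that brings the 5S particle to the 60S precursor (0.62, adjusted p = 0.433). The comparisons of KMT2C and KMT2D siRNA with control share the 3 control libraries.

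**Figure D1:**
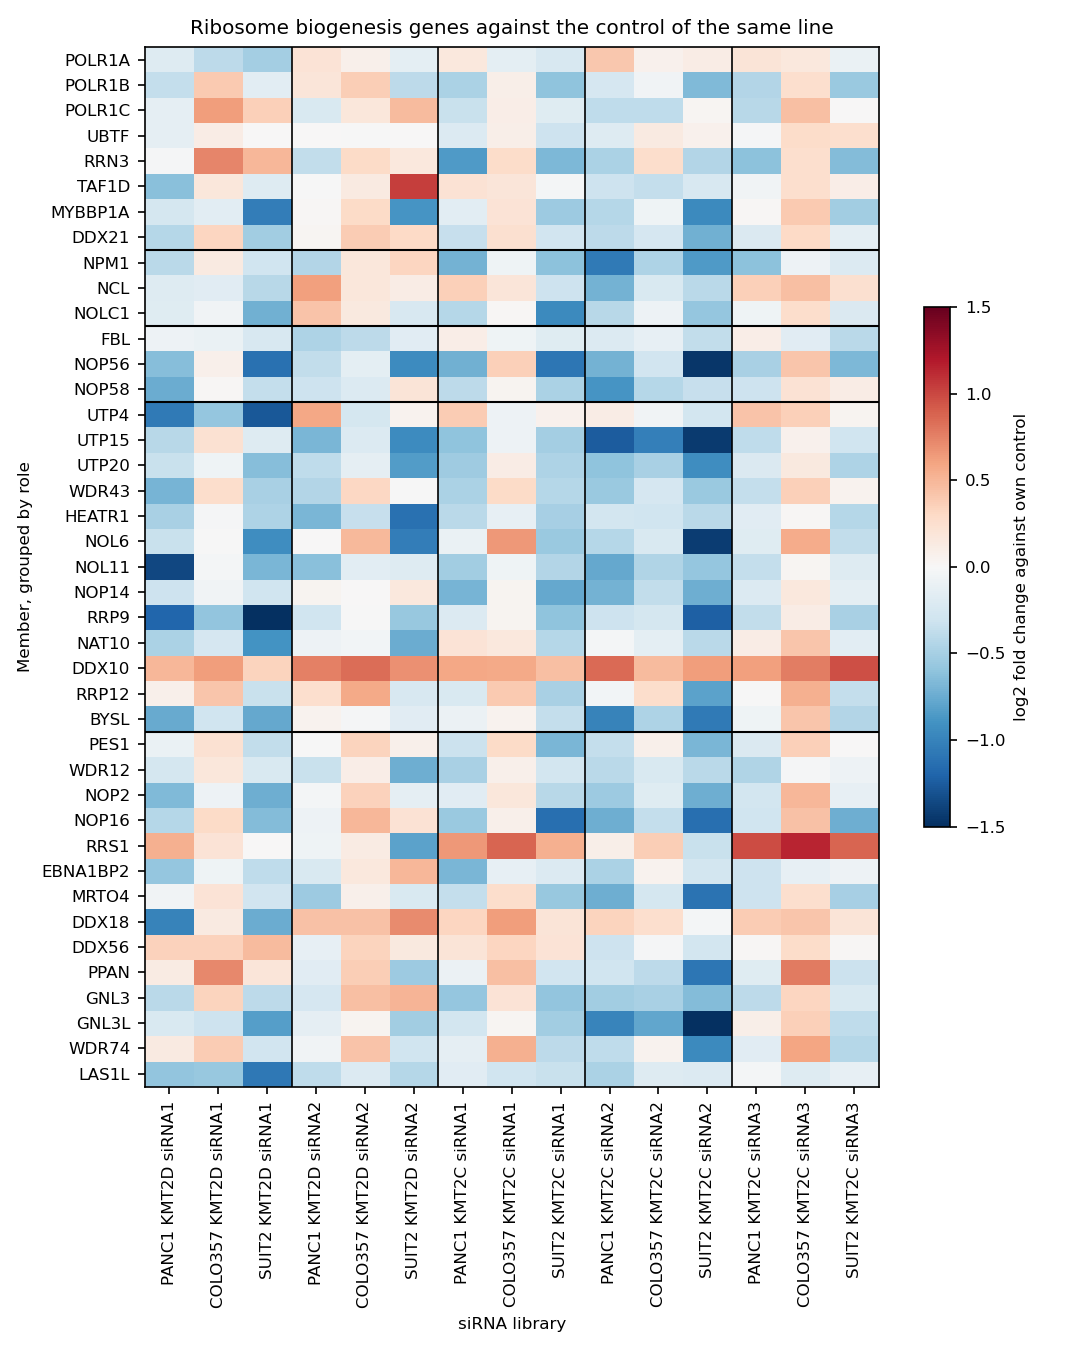
Log2 fold change of each of the 41 tested members (rows, grouped by role) in each of 15 siRNA libraries (columns) against its own line's control, with colours ending at -1.5 and 1.5. DDX10 is red in all 15 columns and LAS1L blue in all 15, the KMT2C siRNA2 columns are mostly blue, and COLO357 columns are redder than those of PANC1 and SUIT2.

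DDX10 was above its own control in all 15 siRNA libraries, a pattern shared by 1.38% of all genes tested. In PANC1, DDX10 stood at 81.5 CPM with control siRNA, 115 and 138 with KMT2D siRNA1 and siRNA2, and 122, 147 and 125 with KMT2C siRNA1 to siRNA3. The COLO357 values of DDX10 in the same order were 56 CPM, then 86.4 and 100.0, then 83, 77.9 and 95.1. DDX10 read 99.7 CPM in the SUIT2 control library, 126 and 159.9 in its KMT2D libraries, and 137, 155 and 196 in its KMT2C libraries. The control was the lowest library in each line, and siRNA and control values did not overlap within any line. Tested by siRNA, DDX10 rose with KMT2D siRNA2 (log2 fold change 0.76, SE 0.146, adjusted p = 0.00142), KMT2C siRNA2 (0.66, adjusted p = 0.00657) and KMT2C siRNA3 (0.79, adjusted p = 0.00608). KMT2D siRNA1 gave 0.49 (adjusted p = 0.058) and KMT2C siRNA1 gave 0.53 (adjusted p = 0.0706), neither past the threshold. The pooled KMT2D call was lost without any control library, any KMT2D siRNA2 library, PANC1 KMT2C siRNA3 or COLO357 KMT2C siRNA1, with log2 fold changes of 0.58 to 0.64 in those fits, and with siRNA as replicate block in limma-voom (0.62, adjusted p = 0.162), and all comparisons with control rest on the same 3 control libraries. Without the library labelled PANC1 KMT2C siRNA2, the KMT2C siRNA2 call was lost (0.54, adjusted p = 0.0691), and without SUIT2 KMT2C siRNA3, the KMT2C siRNA3 call (0.66).

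The DDX10 promoter is shown because this member moved in 1 direction throughout, and was chosen after its values and sequence were seen. These are the 250 bases before the RefSeq start site (GRCh38.p14, chr11:108664819-108665068, plus strand), with the palindrome TGACGTCA, known as the cyclic AMP response element, in capitals.
DDX10: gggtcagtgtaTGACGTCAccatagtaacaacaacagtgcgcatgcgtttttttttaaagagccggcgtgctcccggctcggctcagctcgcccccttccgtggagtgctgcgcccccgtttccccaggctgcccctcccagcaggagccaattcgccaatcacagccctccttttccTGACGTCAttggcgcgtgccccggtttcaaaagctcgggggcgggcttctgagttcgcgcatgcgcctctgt
The palindrome was searched on both strands, which read alike, and starts at 239 and 72 bases before the start site. It occurs at least once in the 300-base promoters of 1 of 36 members in the RefSeq table (DDX10) and 2.25% of 27305 genes, and at least 2 times in 0.073% of genes. A match is a description of letters and shows no binding.

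LAS1L was below its own control in all 15 siRNA libraries, as were 0.785% of all genes. LAS1L read 87.2 CPM in the PANC1 control library, 58 and 67 with KMT2D siRNA1 and siRNA2, and 77.4, 62.5 and 85.2 with KMT2C siRNA1 to siRNA3. COLO357 libraries gave 67.7 CPM of LAS1L with control, 45.8 and 58.7 with KMT2D and 55, 59.4 and 59.2 with KMT2C siRNA. In SUIT2 these values were 61.3 CPM for control, 29.1 and 45.5 for KMT2D, and 48.6, 53.2 and 56.4 for KMT2C siRNA. Its lowest library in each line was the KMT2D siRNA1 library. LAS1L fell with KMT2D siRNA1 (log2 fold change -0.73, SE 0.153, adjusted p = 0.00567), a call lost without the SUIT2 library of that siRNA (-0.58), and the other 4 siRNAs gave -0.34 to -0.11 with no call. No other member kept 1 direction in all 15 libraries.

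The plot of 6 members by library shows these levels on a linear scale.

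**Figure D2:**
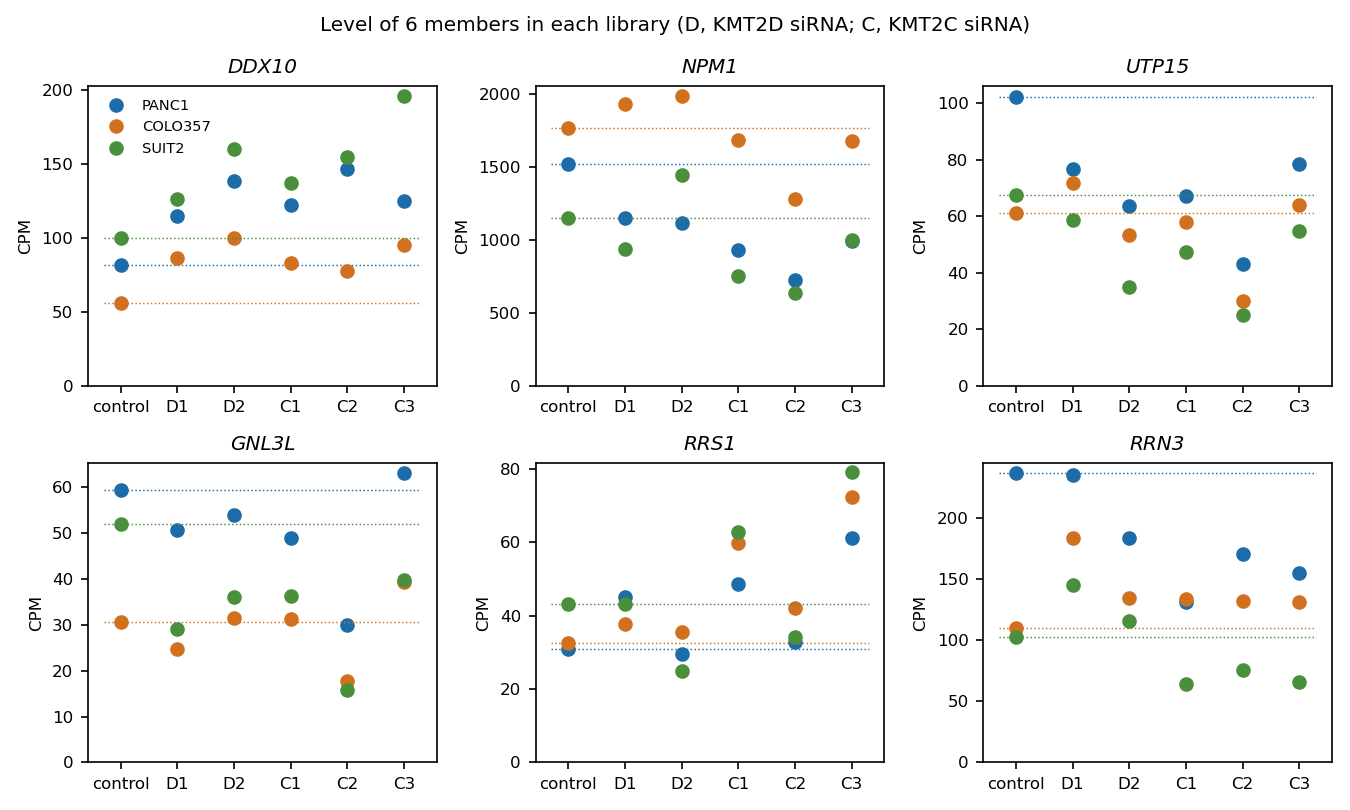
CPM (y axis, from 0) of DDX10, NPM1, UTP15, GNL3L, RRS1 and RRN3 in each of 18 libraries (1 point each); x axis, control, KMT2D siRNA1 and siRNA2 (D1, D2) and KMT2C siRNA1 to siRNA3 (C1 to C3); dotted lines mark each line's control. DDX10 points lie above the dotted line of their colour throughout, and UTP15 and GNL3L are lowest with KMT2C siRNA2 in each line.

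KMT2C siRNA was compared directly with KMT2D siRNA, a contrast free of the control libraries. Of the 41 members 1 was called, against 5.17% of all genes (2.72% lower). RRN3, which carries RNA polymerase I to the ribosomal DNA promoter, was lower with KMT2C siRNA (log2 fold change -0.55, SE 0.135, adjusted p = 0.0225). PANC1 gave 236 CPM of RRN3 with control siRNA, 235 and 184 with KMT2D siRNA1 and siRNA2, and 131, 171 and 154 with KMT2C siRNA1 to siRNA3. For RRN3 in COLO357 the control value was 109.9 CPM, the KMT2D values were 183 and 134, and the KMT2C values were 134, 132 and 131. SUIT2 control stood at 103 CPM of RRN3, its KMT2D libraries at 145 and 115, and its KMT2C libraries at 64.5, 75.8 and 65.5. In PANC1 and SUIT2 every KMT2C library read below every KMT2D library. In COLO357 the KMT2C libraries lay close to the KMT2D siRNA2 library and the KMT2D siRNA1 library stood above all others. The call was lost without the SUIT2 library of KMT2D siRNA1 (-0.47), and with siRNA as replicate block in limma-voom (-0.53, adjusted p = 0.111). It was also lost without all libraries of KMT2D siRNA1, KMT2C siRNA1 or KMT2C siRNA3, and without PANC1 or SUIT2 (-0.57 to -0.36). RRN3 has near-identical pseudogene copies, and the sources used here do not say how the authors' counting split such reads. NPM1 (-0.43, adjusted p = 0.0502), NAT10, which acetylates 18S rRNA (0.38, adjusted p = 0.0625), and RRS1 (0.60, adjusted p = 0.0672) did not pass.

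The siRNAs of KMT2D differed from each other. KMT2D siRNA1 lowered 6 of 41 members and raised none, where 4.02% of all genes were called and 2.18% were lower. The member median was -0.26, with 33 of 41 below 0. Of the 6, 5 belong to the small subunit: RRP9 (log2 fold change -1.14, SE 0.18, adjusted p = 0.000428), UTP4 and NOL11 of the processome subcomplex tied to ribosomal DNA transcription (-0.94 and -0.67), BYSL, a late 40S factor (-0.62), and NAT10 (-0.55). The other was LAS1L. Left without 1 library, the count ran from 1 (without SUIT2 KMT2D siRNA1) to 9, and was 3 without the PANC1 control, the SUIT2 control or PANC1 KMT2D siRNA1. KMT2D siRNA2 gave 3 calls, a share near the background of 8.92% of all genes, and a median of 0.00: DDX10 rose, HEATR1 (log2 fold change -0.71, SE 0.148, adjusted p = 0.003) and UTP15, a further processome protein (log2 fold change -0.61, SE 0.154, adjusted p = 0.0119), fell. Leaving out the COLO357 control raised this count to 5, and the UTP15 call was lost without the PANC1 control, the SUIT2 control or SUIT2 KMT2D siRNA2 (-0.54 to -0.50).

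In PANC1, RRP9 stood at 81.5 CPM with control siRNA, 35.5 and 66 with KMT2D siRNA1 and siRNA2, and 70.6, 65.9 and 62.9 with KMT2C siRNA1 to siRNA3. The COLO357 values of RRP9 in the same order were 37.2 CPM, then 24.7 and 37, then 38.2, 31 and 40.1. RRP9 read 59 CPM in the SUIT2 control library, 19.6 and 39.9 in its KMT2D libraries, and 38.8, 25.3 and 42 in its KMT2C libraries. RRP9 was lowest with KMT2D siRNA1 in every line, and all 5 siRNA libraries of PANC1 and SUIT2 lay below their control. UTP4 read 27.3 CPM in the PANC1 control library, 13 and 40.7 with KMT2D siRNA1 and siRNA2, and 35.5, 29.6 and 36.6 with KMT2C siRNA1 to siRNA3. COLO357 libraries gave 89.4 CPM of UTP4 with control, 59.9 and 74.5 with KMT2D and 84.7, 85.9 and 115 with KMT2C siRNA. In SUIT2 these values were 76.7 CPM for control, 31.8 and 79.2 for KMT2D, and 80.2, 63.3 and 79.1 for KMT2C siRNA. UTP4 was likewise lowest with KMT2D siRNA1 in each line, while PANC1 libraries of the other siRNAs lay above control. PANC1 gave 285 CPM of HEATR1 with control siRNA, 203 and 177 with KMT2D siRNA1 and siRNA2, and 214, 235 and 253 with KMT2C siRNA1 to siRNA3. For HEATR1 in COLO357 the control value was 199 CPM, the KMT2D values were 196 and 158, and the KMT2C values were 184, 162 and 202. SUIT2 control stood at 289.9 CPM of HEATR1, its KMT2D libraries at 209.5 and 133, and its KMT2C libraries at 205, 219 and 215. HEATR1 was lowest with KMT2D siRNA2 in each line.

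Set against each other, KMT2D siRNA2 and siRNA1 differed in 10 members, against 11.3% of all genes. Of these, 9 were higher with siRNA2 (5.63% of all genes) and UTP15 was lower. They were UTP4 (1.08, SE 0.188, adjusted p = 0.000439), DDX18, a 60S helicase (1.03), RRP9 (0.82), TAF1D, NCL, BYSL, NOP2, EBNA1BP2 and POLR1A. The median difference was 0.26 over the members and 0.01 over all genes. Of 41 members, 21 were higher with siRNA2 in all 3 lines and 8 lower, where 20.1% and 19.7% of all genes were. The count fell to 4 without PANC1 KMT2D siRNA1, 5 without PANC1 KMT2D siRNA2, 3 without SUIT2 KMT2D siRNA1 and 5 without SUIT2 KMT2D siRNA2. In PANC1, DDX18 stood at 184 CPM with control siRNA, 91.8 and 249 with KMT2D siRNA1 and siRNA2, and 229, 231 and 239 with KMT2C siRNA1 to siRNA3. The COLO357 values of DDX18 in the same order were 136 CPM, then 149 and 185, then 209.7, 162 and 182. DDX18 read 171 CPM in the SUIT2 control library, 103 and 281 in its KMT2D libraries, and 196, 167 and 195 in its KMT2C libraries. DDX18 read lower with KMT2D siRNA1 than with KMT2D siRNA2 in each line. It was below control with KMT2D siRNA1 in PANC1 and SUIT2 and, by a small margin, with KMT2C siRNA2 in SUIT2, and above control in the other libraries.

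NAT10 read 71.5 CPM in the PANC1 control library, 51.6 and 67.9 with KMT2D siRNA1 and siRNA2, and 82.4, 70.2 and 77 with KMT2C siRNA1 to siRNA3. COLO357 libraries gave 85.3 CPM of NAT10 with control, 71.7 and 83.1 with KMT2D and 95.6, 77.2 and 114 with KMT2C siRNA. In SUIT2 these values were 119.5 CPM for control, 63.9 and 71.1 for KMT2D, and 88.5, 89.97 and 107 for KMT2C siRNA. NAT10 lay below control in all 6 KMT2D libraries, as did 6.33% of all genes, and its KMT2C libraries lay on either side of control in PANC1 and COLO357 and below it in SUIT2.

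The 16 members with a CACGTG hexamer (the E-box bound by MYC with MAX) in a RefSeq promoter of 300 bases (250 before to 50 after the start site) are described because 4 of the 6 members lowered by KMT2D siRNA1 hold it. The hexamer, which reads alike on both strands, was found for 16 of 36 members in the table (44.4%), 8.78% of 27305 genes and 11.7% of the 12778 genes of the table that were tested here. The windows of those 4 members, of UTP20, which fell with KMT2C siRNA2, and of DDX21, among the most abundant members, follow, 5′ to 3′ in the direction of the gene (GRCh38.p14), with the hexamer in capitals.
RRP9: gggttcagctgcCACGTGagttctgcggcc (chr3:51941892-51941921, minus strand)
UTP4: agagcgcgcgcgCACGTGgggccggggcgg (chr16:69132621-69132650, plus strand)
NAT10: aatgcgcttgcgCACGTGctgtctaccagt (chr11:34105602-34105631, plus strand)
BYSL: ttcttcagtcccCACGTGcgatccttcccg (chr6:41921515-41921544, plus strand)
UTP20: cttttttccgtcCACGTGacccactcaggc (chr12:101280083-101280112, plus strand)
DDX21: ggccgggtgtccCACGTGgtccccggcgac (chr10:68956604-68956633, plus strand)
With KMT2D siRNA1, all 16 members with the hexamer lay below 0 (median -0.35) and 14 of 20 without it (median -0.17). With KMT2C siRNA2 these were 16 of 16 (-0.51) and 17 of 20 (-0.35), and with KMT2D siRNA2 9 of 16 (-0.06) and 8 of 20 (0.01). With KMT2C siRNA1 they were 15 of 16 (-0.21) and 15 of 20 (-0.25), and with KMT2C siRNA3 12 of 16 (-0.05) and 11 of 20 (-0.07), so that the median of members with the hexamer was not the lower one with these siRNAs. Without the library labelled PANC1 KMT2C siRNA2, the counts with KMT2C siRNA2 stayed at 16 of 16 (-0.59) and 17 of 20 (-0.41). These counts carry no test, and those with KMT2D siRNA1 come from the siRNA whose calls led to the hexamer. Called members with that siRNA numbered 4 of 16 with the hexamer and 2 of 20 without it (4.02% of all genes). They were 0 and 3 with KMT2D siRNA2 (8.92%) and 7 and 7 with KMT2C siRNA2 (5.81%). With KMT2C siRNA1 they were 0 and 0 (1.2%), and with KMT2C siRNA3 0 and 1 (0.623%). The share below 0 of all tested genes with the hexamer was not counted. MYC itself gave log2 fold changes of 0.36 with KMT2D siRNA (SE 0.197, adjusted p = 0.477) and 0.18 with KMT2C siRNA (SE 0.186, adjusted p = 0.821), and a match to letters shows no binding.

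KMT2C siRNA2 gave the widest change of the list, though KMT2C itself was not called lower with it (log2 fold change -0.37, adjusted p = 0.34). KMT2C was not called lower with KMT2C siRNA3 either (-0.46, adjusted p = 0.422). KMT2D was not called lower with KMT2D siRNA1 (-1.01, adjusted p = 0.0553) or siRNA2 (-0.65, adjusted p = 0.175). Only KMT2C siRNA1 lowered its target past the threshold (-0.99, adjusted p = 0.0148), and edgeR called no member with it. With KMT2C siRNA2, 15 of 41 members were called, 14 lower and DDX10 higher, where 5.81% of all genes were called and 3.14% were lower. The median was -0.44 with 36 members below 0. The lower members were 7 of 13 small subunit factors (UTP15, UTP20, NOL6, NOL11, NOP14, RRP9 and BYSL), 4 of 14 60S factors (NOP2, NOP16, MRTO4 and GNL3L), NOP56 and NOP58 of the box C/D core, and NPM1. No RNA polymerase I gene was called. The largest falls were in UTP15 (log2 fold change -1.24, SE 0.156, adjusted p = 1.52e-05), GNL3L, a nucleolar GTPase (log2 fold change -1.17, SE 0.17, adjusted p = 9.56e-05), NOP56 (-0.86), BYSL (-0.85) and NPM1 (log2 fold change -0.81, SE 0.159, adjusted p = 0.00266). Leaving out the library labelled PANC1 KMT2C siRNA2 gave 10 calls, all lower, where 3.16% of all genes were called, and a median of -0.44. There were 5 without the SUIT2 control, 6 without the PANC1 control, 6 without SUIT2 KMT2C siRNA2 and 9 without COLO357 KMT2C siRNA2, with 20 at most. UTP15, GNL3L and NPM1 kept their calls in each of these 18 fits.

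PANC1 gave 102 CPM of UTP15 with control siRNA, 76.6 and 63.5 with KMT2D siRNA1 and siRNA2, and 67.3, 43 and 78.5 with KMT2C siRNA1 to siRNA3. For UTP15 in COLO357 the control value was 61.2 CPM, the KMT2D values were 71.9 and 53.3, and the KMT2C values were 57.8, 30.1 and 64. SUIT2 control stood at 67.4 CPM of UTP15, its KMT2D libraries at 58.7 and 35, and its KMT2C libraries at 47.3, 24.9 and 54.8. UTP15 was lowest with KMT2C siRNA2 in every line. In PANC1, GNL3L stood at 59.3 CPM with control siRNA, 50.7 and 54 with KMT2D siRNA1 and siRNA2, and 48.9, 29.8 and 63 with KMT2C siRNA1 to siRNA3. The COLO357 values of GNL3L in the same order were 30.6 CPM, then 24.6 and 31.5, then 31.3, 17.7 and 39.4. GNL3L read 51.9 CPM in the SUIT2 control library, 29.1 and 36 in its KMT2D libraries, and 36.2, 15.7 and 39.8 in its KMT2C libraries. GNL3L too was lowest with KMT2C siRNA2 in every line, and its SUIT2 control stood above all 5 siRNA libraries. NPM1 read 1523 CPM in the PANC1 control library, 1155 and 1119 with KMT2D siRNA1 and siRNA2, and 931, 728 and 997 with KMT2C siRNA1 to siRNA3. COLO357 libraries gave 1771 CPM of NPM1 with control, 1937 and 1990.0 with KMT2D and 1688, 1284 and 1679 with KMT2C siRNA. In SUIT2 these values were 1154 CPM for control, 940.5 and 1449 for KMT2D, and 753, 638 and 1003 for KMT2C siRNA. NPM1 read below control in all 9 KMT2C libraries, as did 3.27% of all genes, and was lowest with siRNA2 in each line. NPM1 also has many processed copies in the genome, whose share of reads is not known here.

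PANC1 gave 38.8 CPM of BYSL with control siRNA, 22.9 and 40.1 with KMT2D siRNA1 and siRNA2, and 36.6, 19.4 and 37.2 with KMT2C siRNA1 to siRNA3. For BYSL in COLO357 the control value was 27.8 CPM, the KMT2D values were 22.5 and 27.4, and the KMT2C values were 28.8, 20.2 and 37. SUIT2 control stood at 32.1 CPM of BYSL, its KMT2D libraries at 18.8 and 28.4, and its KMT2C libraries at 25.1, 15.3 and 23.6. BYSL had its lowest PANC1, COLO357 and SUIT2 values with KMT2C siRNA2. In PANC1, NOP56 stood at 379.5 CPM with control siRNA, 243 and 294 with KMT2D siRNA1 and siRNA2, and 231, 233 and 271 with KMT2C siRNA1 to siRNA3. The COLO357 values of NOP56 in the same order were 246 CPM, then 261 and 222, then 315, 202 and 329. NOP56 read 166 CPM in the SUIT2 control library, 76.5 and 86.2 in its KMT2D libraries, and 78.4, 60.2 and 104 in its KMT2C libraries. NOP56 read below control in all PANC1 and SUIT2 siRNA libraries, and its COLO357 values lay on either side of control.

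The comparison of KMT2C siRNA2 with the other KMT2C siRNAs does not use the control libraries. KMT2C siRNA2 stood below siRNA1 and siRNA3 in all 3 lines for 18 of 41 members, against 9.31% of all genes, and above them for none, against 10.4%. In COLO357 and SUIT2 alone, it stood below both for 25 members, against 14.6% of all genes. Against siRNA1, 4 members were lower (5.04% of all genes called, 2.87% lower): GNL3L (log2 fold change -0.90, SE 0.169, adjusted p = 0.00204), UTP15 (-0.83), BYSL (-0.71) and RRS1 (-0.64). Only 2 were left without the library labelled PANC1 KMT2C siRNA2, without PANC1 KMT2C siRNA1 or without SUIT2 KMT2C siRNA2. Against siRNA2, siRNA3 raised 5 (2.73% of all genes called, 1.87% higher): GNL3L (log2 fold change 1.18, SE 0.17, adjusted p = 0.000158), UTP15 (1.03), RRS1 (0.96), BYSL (0.82) and NCL (0.79), with 39 of 41 members above 0 and a median of 0.42. Leaving out the library labelled PANC1 KMT2C siRNA2 left 3. Between siRNA3 and siRNA1 edgeR called no member (0.209% of all genes), and 3 had an unadjusted p under 0.05.

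KMT2C siRNA1 gave no call by edgeR among the members (1.2% of all genes), with 12 at an unadjusted p under 0.05, a median of -0.22 and 33 below 0. KMT2C siRNA3 gave 2 calls (0.623% of all genes, 0.48% higher), DDX10 and RRS1, both higher, and a median of -0.03. RRS1 read 31 CPM in the PANC1 control library, 45 and 29.5 with KMT2D siRNA1 and siRNA2, and 48.6, 32.9 and 61.3 with KMT2C siRNA1 to siRNA3. COLO357 libraries gave 32.7 CPM of RRS1 with control, 37.7 and 35.5 with KMT2D and 59.9, 42.1 and 72.4 with KMT2C siRNA. In SUIT2 these values were 43.2 CPM for control, 43.3 and 24.8 for KMT2D, and 62.8, 34.3 and 79.1 for KMT2C siRNA. In each line RRS1 was highest with KMT2C siRNA3 (log2 fold change 0.99, SE 0.173, adjusted p = 0.00362), then with siRNA1 (0.68, adjusted p = 0.0506). Both siRNA3 calls were lost without the SUIT2 library of that siRNA, where RRS1 kept 0.92. PANC1 gave 1866 CPM of NCL with control siRNA, 1635 and 2860.0 with KMT2D siRNA1 and siRNA2, and 2395, 1141 and 2399 with KMT2C siRNA1 to siRNA3. For NCL in COLO357 the control value was 1847 CPM, the KMT2D values were 1647 and 2079, and the KMT2C values were 2092, 1571 and 2528. SUIT2 control stood at 2316 CPM of NCL, its KMT2D libraries at 1743 and 2507, and its KMT2C libraries at 1868, 1743 and 2748. NCL was lowest with KMT2C siRNA2 in PANC1 and COLO357 and shared the lowest place with KMT2D siRNA1 in SUIT2.

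The lines differed in where the list as a whole lay. In SUIT2 the member median against control was below 0 with all 5 siRNAs, from -0.58 with KMT2C siRNA2 to -0.17 with KMT2D siRNA2, and in PANC1 likewise, from -0.42 to -0.08. In COLO357 it was above 0 with 4 of 5 siRNAs (0.11 to 0.30) and -0.23 with KMT2C siRNA2. KMT2C siRNA2 gave the lowest median in each line. The same medians over all genes tested lay between 0.00 and 0.01. COLO357 KMT2C siRNA3, with the highest median, also had the highest share of reads in no annotated feature (30.4%), and SUIT2 KMT2C siRNA2, with the lowest, had 25.0%. The part of that share in the medians was not tested.

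**Figure D3:**
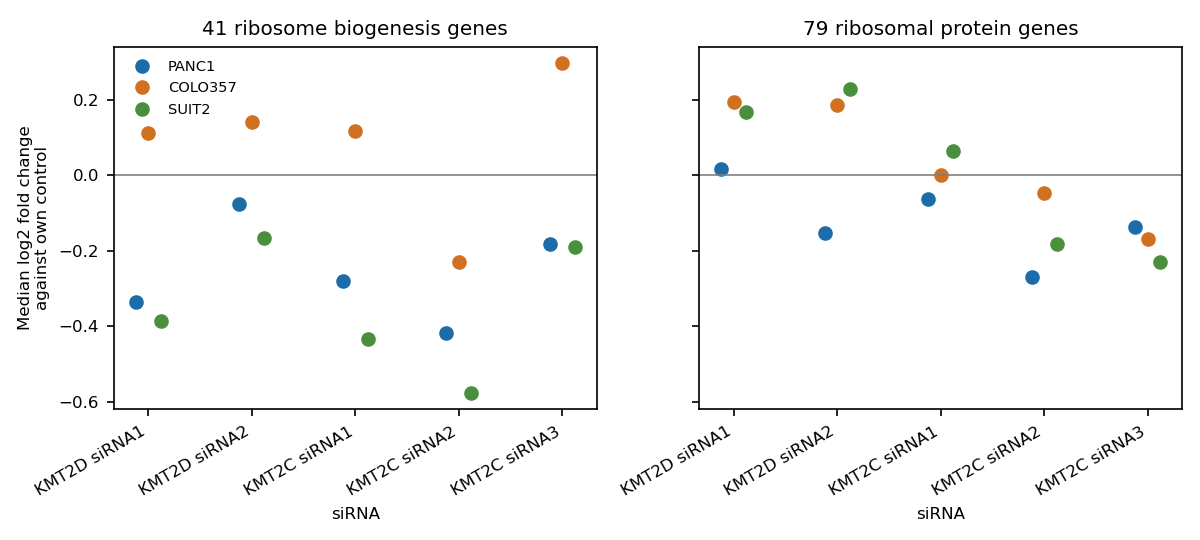
Median log2 fold change against the control of the same line (y axis) for each siRNA (x axis) and line (colour), over 41 ribosome biogenesis genes (left) and 79 cytosolic ribosomal protein genes (right); each point is 1 library. On the left COLO357 lies above the other lines with every siRNA; on the right the KMT2D points of COLO357 and SUIT2 lie above 0 and all siRNA3 points below it.

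Within a line, edgeR called no member for either target. All genes called with KMT2D siRNA made up 0.0% in PANC1, 0.0% in COLO357 and 0.038% in SUIT2, and with KMT2C siRNA 0.0%, 0.0% and 0.00476%. In the same order, 3, 1 and 8 members had an unadjusted p under 0.05 with KMT2D siRNA, and 3, 1 and 9 with KMT2C siRNA. The difference of the effect between lines was tested itself and no member was called (0.0% of all genes for either target), with 0 members at an unadjusted p under 0.05 for KMT2D and 3 for KMT2C. The medians by line were not tested as such, and each rests on 1 control library.

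Levels were also compared between lines, and these differences were not tested against those between siRNAs. Called members numbered 28 for COLO357 against PANC1 (66.8% of all genes), 26 for SUIT2 against PANC1 (59.3%) and 16 for SUIT2 against COLO357 (59.7%), shares near or below the background. FBL stood out. It read 1013 to 1498 CPM in the 6 PANC1 libraries, 119 to 156 in COLO357 and 97 to 128 in SUIT2, so that the ranges of PANC1 and the other lines lay far apart. The difference was 9.3-fold for COLO357 (log2 -3.22, SE 0.121, adjusted p = 3.42e-16) and 12-fold for SUIT2 (-3.58, SE 0.123, adjusted p = 9.76e-17). With siRNA, FBL moved by less than this in any line: KMT2D siRNA gave -0.23 and KMT2C siRNA -0.14. Apart from FBL, the largest differences were in NOP56 (2.95-fold lower in SUIT2 than in PANC1), UTP4 (2.77-fold higher in COLO357), MRTO4, which holds the place of the ribosomal stalk (2.5-fold lower in SUIT2), NOP16 (2.6-fold lower in SUIT2 than in COLO357) and EBNA1BP2, a 60S assembly factor (2.41-fold lower in COLO357).

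The genes next to FBL on chromosome 19 were read because of its difference between lines. In RefSeq gene order, all 17 tested genes among 24 neighbours from ZFP36 to AKT2 were called lower in both COLO357 and SUIT2 than in PANC1, with log2 differences of -7.11 to -2.05 and -13.1 to -3.18. DLL3 gave the extreme of both ranges, and next came EID2B in SUIT2 (-5.21) and PLEKHG2 in COLO357 (-4.52). Among the neighbours are RPS16, a ribosomal protein of the 40S subunit (-2.77 and -3.71), TIMM50, a mitochondrial import subunit (-3.23 and -4.55), and PSMC4, a proteasome subunit (-3.90 and -4.34). Past AKT2 the differences were smaller, with the lowest in COLO357 at PRX (-1.59, and -0.59 in SUIT2), and others from C19orf47 (-0.59 and -1.18) and PLD3 (0.01 and -0.57) to SERTAD3 (-0.25 and -0.52). The end of the run at AKT2 was set after these values were seen. ZFP36, the farthest of the 15 genes read before FBL, was still lower (-3.30 and -3.25), so the start of the run was not found. Of all 21028 genes tested, 6746 were called lower in COLO357 than in PANC1 and 6265 in SUIT2. DNA copy number was not measured here.

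**Figure D4:**
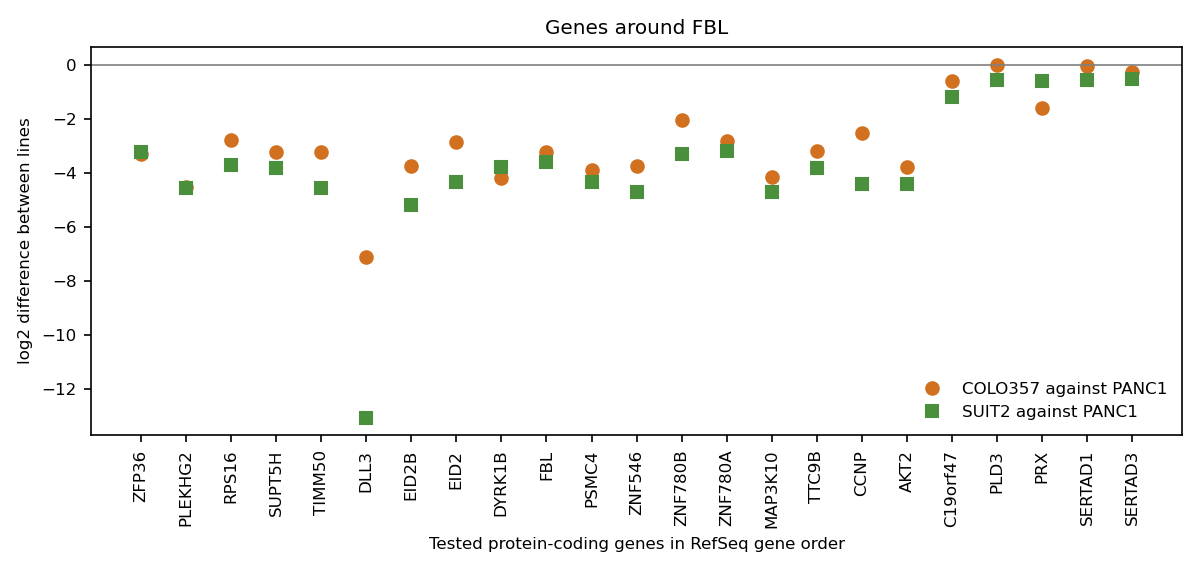
Log2 difference of COLO357 (circles) and SUIT2 (squares) from PANC1 (y axis) for FBL and the tested protein-coding genes among 15 on each side, in RefSeq gene order (x axis). From ZFP36 to AKT2 all points lie below -2, and from C19orf47 on all lie above it.

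The other genes of the pathway came from lists by role. Of 79 cytosolic ribosomal proteins, none was called with KMT2D siRNA (7 at an unadjusted p under 0.05; median 0.11, 61 above 0) or with KMT2C siRNA (5; median -0.09, 61 below 0), by edgeR. Between KMT2C and KMT2D siRNA, 8 ribosomal proteins were lower and none higher (5.17% of all genes called), with a median of -0.21, 69 of 79 below 0, and -0.01 over all genes. Among them were RPL36, a 60S protein (-0.44, SE 0.0998, adjusted p = 0.0155), RPL31, RPL7A and RPL13 of the same subunit, and RPS6 and RPS7 of the 40S subunit. Ribosomal protein genes have many processed copies whose reads may be shared.

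Among 39 other 90S and 40S factors tested, 6 fell and none rose with KMT2C siRNA2 (median -0.36, 34 below 0), where 5.81% of all genes were called and 3.14% were lower. LTV1, a 40S export factor, was the lowest (-1.22, SE 0.16, adjusted p = 2.93e-05), and the others were TSR1, UTP11, UTP18, PNO1 and ESF1. Of 38 other 60S factors, 5 fell (median -0.24, 33 below 0), RPF2, GTPBP4, BRIX1, RSL1D1 and PUM3. Of 12 genes of the H/ACA particle and its assembly 1 fell, DKC1, the pseudouridine synthase (-0.63), and of 14 exosome genes 2, EXOSC2 and EXOSC4. Of 15 RNA polymerase III subunits 2 fell, POLR3G (-1.82, SE 0.225, adjusted p = 1.9e-05) and POLR3K (-1.37). None of 10 other RNA polymerase I genes was called with this siRNA (6 at an unadjusted p under 0.05; median -0.37), and none of 15 housekeeping genes (3; median -0.12). In the fit without the library labelled PANC1 KMT2C siRNA2, where 1.79% of all genes were lower, the calls were 4 of 39, 4 of 38, 0 of 12, 1 of 14 and 2 of 15 in the order of these lists, and 0 in the RNA polymerase I and housekeeping lists. Calls among the other assembly factors were not confined to KMT2C siRNA2. With KMT2D siRNA2, 5 of 39 were called, 4 of them lower (median -0.01), where 8.92% of all genes were called. Of the 38 other 60S factors, 6 were called with it, 4 higher and 2 lower (median 0.07). ABT1 of the 39 (-2.42, adjusted p = 1.56e-06) and URB2 of the 38 (-1.65, adjusted p = 2.08e-05) were the lowest. KMT2D siRNA1 called 2 of 39 and 2 of 38. Genes named here for single siRNAs were picked after their values were seen.

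With KMT2D siRNA pooled, RSL24D1, a late 60S factor, rose (0.98, SE 0.209, adjusted p = 0.02), as did C1D, an exosome cofactor (1.18, adjusted p = 0.0221), MXD4, a MAX partner that represses (2.0, SE 0.411, adjusted p = 0.0182), and GADD45A, a stress-induced gene of the p53 list (0.92, adjusted p = 0.0378). These were the only calls with KMT2D siRNA pooled among 245 entries of the 10 pathway and control lists (1.63%, near the 1.2% of all genes). TBP is entered in both the RNA polymerase I and the housekeeping list. With KMT2C siRNA pooled, no gene of those lists was called by edgeR, with 1 to 6 genes per list at an unadjusted p under 0.05. By siRNA, MXD4 rose with KMT2C siRNA2 (1.80, adjusted p = 0.00364) and C1D with KMT2C siRNA1 (1.12, adjusted p = 0.0298). Neither rise was thus confined to KMT2D siRNA. Of 13 MYC network genes, 3 were called with KMT2C siRNA2, all higher, against 5.81% of all genes, and 1 without the library labelled PANC1 KMT2C siRNA2. KMT2D siRNA2 also gave 3 calls in that list, 2 higher and 1 lower, against 8.92% of all genes. MYC stood above control in all COLO357 siRNA libraries, at 96.7 to 147.8 CPM against 77.4. In SUIT2 it read 100.5 to 172.9 CPM against 135.8, and in PANC1 76.8 to 118.4 against 80.3. The members' medians were above 0 with 4 of 5 siRNAs in COLO357, where MYC was above control with every siRNA, and below 0 with every siRNA in SUIT2, where MYC was below control with 4 of 5, and in PANC1, where MYC was above control with 4 of 5. Its part in the members' levels was not tested.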

How the data were processed

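RNA was sequenced from 18 libraries as paired ends of 100 nt. The deposited values are raw read counts per Ensembl gene, 1 table per library. TopHat2, HTSeq, FastQC and edgeR, and the build hg19, are named in the submitters' processing notes; the sources used here give no versions, annotation release or strand setting. Entries that name no gene (32.98% to 53.39% of read pairs) were left out. Symbols came by identifier from a reference list of gene names and, where it gave none, from GENCODE v29 (GRCh38). Together these named 52526 of 63677 identifiers. Promoter sequences came from RefSeq (GRCh38.p14).

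Counts were fitted with edgeR 4.0.16 in R 4.3.3 (quasi-likelihood F test, TMM, robust, Benjamini-Hochberg over 21028 genes that passed the filter with minimum count 10 and minimum total count 15). All 18 libraries entered each fit: line plus target (13 residual degrees of freedom), line plus siRNA (10), and 9 groups of line by target (9), in which each line's lone control took its spread from the other groups. The SE is the fold change over the root of F. CPM use TMM-scaled library sizes, and library log2 fold changes a prior count of 2. The line plus target fit alone was tested on simulated data, for KMT2D siRNA against control. It recovered 68% of 2-fold and 98% of 3-fold changes, and 7.65% of its calls fell on genes given no change. The simulated libraries were drawn independently, with no deviation shared by libraries of the same siRNA, so these rates may not hold for the real libraries.

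Members and lists were chosen with earlier results of these data known. Values in every library were due for up to 3 called members per contrast by smallest p, the 4 smallest p-values of each target contrast and the most abundant member of each role. Alternatives were RLE factors, library totals alone, no filter, DESeq2 1.42.0, a limma-voom 3.58.1 fit with siRNA as replicate block, and leaving out each library, siRNA or line. The siRNA number names a different siRNA for each target and so pairs no libraries across targets; across lines it is the same siRNA, and deviations of same-siRNA libraries correlated at 0.28 to 0.38 for KMT2D and 0.056 to 0.29 for KMT2C. No 2 libraries of a group were alike within sampling noise. In no set of libraries of the members examined did a library stand apart.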

Additional observations from a re-analysis of the deposited data

How the results depend on the processing

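For 32 results of named members, no value changed sign under the alternatives run. The members' medians moved by less than the spread between libraries, but the median with KMT2D siRNA (-0.10) ran from -0.26 to 0.01, above 0 without KMT2D siRNA1, and that between targets (-0.04) from -0.18 to 0.06, above 0 in 5 settings. Of 772 values for single members under alternatives, 703 kept their side of the threshold, 34 lost a call and 35 gained one. Counts of called members changed more.

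With KMT2D siRNA the count of 1 member became 0 without the filter, without KMT2C siRNA1 or siRNA3, without any 1 line and with siRNA as replicate block in limma-voom, 2 without KMT2D siRNA1, 3 without KMT2D siRNA2 and 3 with DESeq2. With KMT2C siRNA the count of 0 became 1 with RLE factors, library totals alone, DESeq2 and without KMT2D siRNA1 or siRNA2. It stayed at 0 with the replicate block. Between KMT2C and KMT2D siRNA the count of 1 became 2 with RLE factors or library totals alone, 4 without the filter, 4 without KMT2D siRNA1, 7 without KMT2D siRNA2, 3 without KMT2C siRNA2, 5 with DESeq2 and 0 without KMT2C siRNA1, KMT2C siRNA3, PANC1 or SUIT2 and with the replicate block. Without the filter, KMT2D siRNA2 gave 5, KMT2C siRNA1 1, KMT2D siRNA2 against siRNA1 6, and KMT2C siRNA3 against siRNA2 9. The cause of these changes was not tested.

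Leaving out 1 library at a time gave 0 to 1 members for either target against control, 1 to 3 between targets, 1 to 9 with KMT2D siRNA1, 2 to 5 with KMT2D siRNA2, 0 to 1 with KMT2C siRNA1, 5 to 20 with KMT2C siRNA2, 0 to 2 with KMT2C siRNA3, 3 to 11 between the KMT2D siRNAs, 2 to 5 for KMT2C siRNA2 against siRNA1, 0 for siRNA3 against siRNA1 and 3 to 7 for siRNA3 against siRNA2. Between lines it gave 24 to 28, 21 to 28 and 15 to 18. Over all genes, the 253 calls with KMT2D siRNA ran from 36 to 320 with 1 library left out, were 657 without the filter, 660 with DESeq2 and 84 with the replicate block. The 59 calls with KMT2C siRNA ran from 7 to 74, and were 270, 217 and 31 in those settings. The 1087 between targets ran from 672 to 1225 and were 1762, 1939 and 189. Of those 1087, 515 were higher, and with library totals alone 618 of 1067. Each line has 1 control library, and that number limits every comparison with control. The counts of other lists without PANC1 KMT2C siRNA2 were added after the data were seen.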
